A study of Mus musculus with 6 samples.

Results

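Cells sorted from the retina to enrich retinal ganglion cells (RGCs), which send their axons through the optic nerve, were examined for the subunits of voltage-gated sodium channels and for the sodium leak channel. The members were chosen by name in the count table. They were 5 pore-forming alpha subunits (*Scn1a*, *Scn2a*, *Scn3a*, *Scn8a* and *Scn9a*), 3 auxiliary beta subunits (*Scn2b*, *Scn3b* and *Scn4b*) and *Nalcn*, which makes 9 of the 55573 genes in the table. The mice were adult C57BL/6J animals of both sexes, per the study's methods. The control group received AAV2-*GFP* and the *Ezh2* overexpression group received AAV2-*Ezh2*, each into the vitreous. In both groups the optic nerve crush (ONC) came 2 weeks after the virus, and cells were sorted 3 days after ONC with an antibody to CD90.2, the product of *Thy1*, so no uninjured group enters these values. AAV2 given this way also reaches other retinal cells, and the labels do not say whether the 3 libraries of each group came from separate animals. P values therefore measure the spread between these libraries, which may in part be technical.

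The libraries held between 30569933 and 35971192 counts, and Ezh2 replicate 3 stood apart on the first principal component, at 76.6 against 10.7 and 10.2 for the other 2 Ezh2 libraries. The study left out 1 Ezh2 library, taken here to be Ezh2 replicate 3, so the main comparison used 5 libraries. All 6 values of each member are printed, and the fit of all 6 libraries is given beside the fit of 5 for the members and the named partner genes that passed the test. *Ezh2* itself lay between 28.8 and 34.6 CPM (counts per 1000000 counts of the library) with AAV2-*GFP* and at 78.0, 65.3 and 105 CPM in the 3 Ezh2 libraries. Its log2 fold change (1.17 ± 0.08, SE) passed edgeR's quasi-likelihood test at an adjusted p of 2.97e-11, and with all 6 libraries it was 1.41 (adjusted p = 0.0122).

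The labelled cell type was compared with marker genes. *Thy1*, the target of the sort, ran from 87.2 to 92.6 CPM in the GFP libraries and from 98.9 to 114 CPM in the Ezh2 libraries. *Rbpms*, an RNA-binding protein of RGCs, lay between 16.4 and 20.8 CPM in the 6 libraries. The defining RGC transcription factors were at or near 0, with *Pou4f1* at no more than 0.600 CPM, *Pou4f2* at no more than 0.0932 CPM and *Pou4f3* at no more than 0.404 CPM. *Glul*, the glutamine synthetase of Muller glia, reached 9540 to 9900 CPM in the GFP libraries and 5446 to 6937 CPM in the Ezh2 libraries. The values below therefore belong to a mixture in which RNA of other retinal cells was abundant. In such bulk libraries, fewer cells of a type and less RNA per cell cannot be told apart.

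Voltage-gated sodium channels open when the membrane depolarises and carry the inward current that starts and propagates the action potential. The alpha subunit forms the pore and holds the voltage sensors, and beta subunits are single-pass membrane proteins that tune gating and help to place the channel at the cell surface. In RGCs, as in other central neurons, the channels are packed at the axon initial segment and at nodes of Ranvier through ankyrin and spectrin, and some amacrine and bipolar cells of the retina carry sodium currents as well. The leak channel encoded by *Nalcn* is a relative of the alpha subunits that passes a small steady sodium current near rest and needs accessory proteins of the *Unc79*, *Unc80* and *Fam155a* genes.

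To see which members the sorted cells carried, levels were compared per length, as CPM per kb of merged exons. *Scn8a*, the main alpha subunit of mature axon initial segments and nodes, stood highest in the GFP libraries at 2.07 ± 0.116 CPM per kb (SD, n = 3). *Scn9a*, best known from peripheral pain neurons, followed at 2.03 ± 0.0344 CPM per kb, and *Scn2b* at 1.97 ± 0.0859 CPM per kb. The ranges of these 3 neighbours overlapped between the GFP libraries, so their order was not resolved. *Scn1a* came next at 1.09 ± 0.0431 CPM per kb, followed by *Scn2a* at 0.599 ± 0.0445 CPM per kb and *Nalcn* at 0.536 ± 0.0103 CPM per kb, with no overlap between neighbours. *Scn4b* at 0.192 ± 0.0531 CPM per kb and *Scn3a* at 0.184 ± 0.0601 CPM per kb overlapped each other. *Scn3b* was lowest at 0.0691 ± 0.0102 CPM per kb. In Ezh2 replicates 1 and 2 the mean level of *Scn1a* per length was 0.159 CPM per kb, below those of *Scn2a*, *Nalcn*, *Scn4b* and *Scn3b*.

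**Figure D1:**
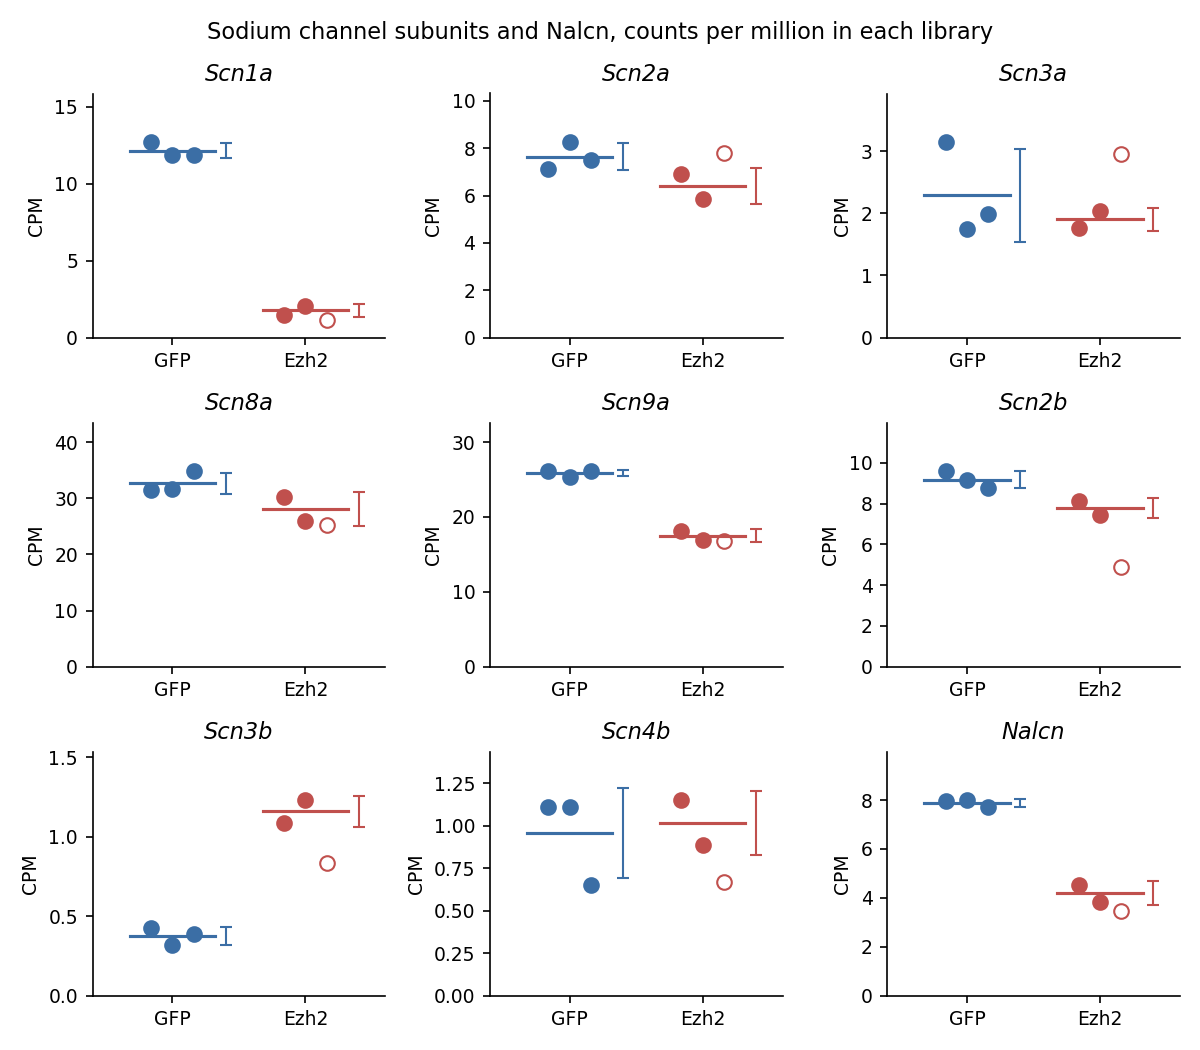
CPM (vertical axis, starting at 0) of each of the 9 members in each library. Points are libraries, filled for those of the main comparison and open for Ezh2 replicate 3, the horizontal line is the group mean, and the bar to its right is 1 SD over the filled points. For *Scn1a*, the GFP libraries sit between 11.9 and 12.7 CPM and the Ezh2 libraries between 1.17 and 2.06 CPM, while for *Scn3a* and *Scn4b* the groups overlap.

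All 9 members passed the filter on low counts. Of these, 2 were called lower (*Scn1a* and *Nalcn*) and 1 was called higher (*Scn3b*) under a joint rule, a fold change above 1.5 and an adjusted p below 0.05. Over all 20241 genes tested, 3.80% were called by the same rule, 1.28% lower and 2.52% higher. The median log2 fold change of the 9 members was -0.25 in the fit of 5 libraries, beside -0.01 over all genes tested, and 7 of the 9 values were negative. The fit of all 6 libraries called the same 3 genes, where 2.53% of the 19732 genes tested were called (0.907% lower and 1.62% higher), and the median of the members was -0.23. The libraries of the 2 groups did not overlap in CPM for 7 of the 9 members (6 lower and 1 higher in the Ezh2 libraries) in the main comparison, and for 6 with Ezh2 replicate 3 included. Among all genes tested, 44.9% did not overlap in 5 libraries and 34.2% in 6, so this count alone says little about the members. The study placed *Scn1a* and *Nalcn* on its excitability list from these libraries, so their direction here is not independent evidence of that list's direction.

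*Scn1a* encodes the alpha subunit Nav1.1, whose loss in inhibitory neurons is known from Dravet epilepsy. The gene lies on the minus strand of chromosome 2 from 66270778 to 66440840 (GRCm38). The 250 bases before its RefSeq start (chr2:66440838-66441087, minus strand, GRCm38.p6) are shown because 2 transcripts begin here in opposite directions. The *Scn1a* start is the base after the end of the run, at position 251, and the start of the antisense long noncoding gene *Gm13629* falls at position 208, counted from the first base printed. Capitals mark CG dinucleotides, the sites of DNA methylation, in the 4 runs below. Those of *Nalcn*, *Scn9a* and *Scn8a* are shown for comparison with the same stretch of other members.
*Scn1a*: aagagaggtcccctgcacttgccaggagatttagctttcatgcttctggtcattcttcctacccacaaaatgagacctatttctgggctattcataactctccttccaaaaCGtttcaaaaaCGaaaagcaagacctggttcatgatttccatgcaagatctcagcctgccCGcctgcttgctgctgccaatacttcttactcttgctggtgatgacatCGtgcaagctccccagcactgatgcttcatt
*Nalcn*: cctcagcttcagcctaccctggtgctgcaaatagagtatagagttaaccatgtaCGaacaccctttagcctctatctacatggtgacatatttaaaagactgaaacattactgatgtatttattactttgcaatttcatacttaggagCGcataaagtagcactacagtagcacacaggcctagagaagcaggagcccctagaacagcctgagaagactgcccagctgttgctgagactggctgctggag
*Scn9a*: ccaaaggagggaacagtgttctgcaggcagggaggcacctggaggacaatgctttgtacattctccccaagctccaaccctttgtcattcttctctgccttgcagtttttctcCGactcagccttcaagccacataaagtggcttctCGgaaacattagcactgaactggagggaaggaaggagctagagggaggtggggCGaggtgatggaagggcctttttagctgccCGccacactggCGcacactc
*Scn8a*: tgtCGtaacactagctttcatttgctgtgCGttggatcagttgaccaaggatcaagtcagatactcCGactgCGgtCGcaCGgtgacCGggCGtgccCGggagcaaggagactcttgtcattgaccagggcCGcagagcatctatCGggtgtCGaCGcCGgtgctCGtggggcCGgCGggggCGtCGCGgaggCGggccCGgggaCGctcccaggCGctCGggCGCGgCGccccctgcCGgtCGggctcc

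The windows lie at chr14:123627145-123627394 on the minus strand for *Nalcn*, at chr2:66634963-66635212 on the minus strand for *Scn9a* and at chr15:100870395-100870644 on the plus strand for *Scn8a*. RefSeq windows were matched for 7 of the 9 members, 9 windows in all, since *Scn2a* and *Scn8a* each have 2. The *Scn1a* window holds 4 CG dinucleotides, and 62.2% of all 32851 mouse windows of this length hold at least as many. The *Nalcn* window holds 2 (81.2% of windows hold at least as many), that of *Scn9a* 5 (55.6%) and that of *Scn8a* 30 (5.94%). The second RefSeq window of *Scn8a*, not printed, holds 9 (40.3%). Neither TATAAA nor its reverse complement occurs in the printed runs, whereas 12.4% of all windows hold it on 1 strand or the other. These are descriptions of the letters, and no methylation or binding was measured in these libraries.

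mRNA levels of *Scn1a* were 12.7, 11.9 and 11.9 CPM in the GFP libraries (replicates 1 to 3 in order, here and below) and 1.49, 2.06 and 1.17 CPM in the Ezh2 libraries. In counts, these were 389, 376 and 366 against 48, 72 and 42. Every Ezh2 library lay far below every GFP library, and the library left out of the main comparison was the lowest. The fitted level after *Ezh2* overexpression was 14.8% of the GFP level, a log2 fold change of -2.76 ± 0.18 (SE, 95% interval -3.13 to -2.39), with an adjusted p of 1.84e-12 by edgeR. Among the 259 genes called lower, this was the 12th change in size and the third by p. With all 6 libraries the log2 fold change was -2.91 ± 0.21 and the adjusted p 0.00032. Part of the *Scn1a* sequence is shared with other channel genes, since 5.48% of its 50-base stretches also occur in another sodium channel transcript. Reads from these stretches could have been counted for either gene.

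Cell type markers also differed between the groups, in both directions. Over all genes tested in 5 libraries, 7.68% were lower and 10.1% higher at an adjusted p under 0.05. In 6 libraries 5.78% passed in either direction. Of the 11 amacrine markers, 8 were tested, of which 3 were lower and 1 higher at this threshold, in the fit of 5 libraries as in that of 6. Their summed level was 662 to 701 CPM in the GFP libraries, 549 to 574 CPM in Ezh2 replicates 1 and 2 and 474 CPM in Ezh2 replicate 3. The defining genes of cholinergic and dopaminergic amacrine cells, *Chat*, *Slc18a3* and *Th*, were at or near 0 in all libraries. Of the 5 Muller glia markers 4 were lower (2 with all 6 libraries), with a summed level of 14036 to 14544 CPM in the GFP libraries, 10713 to 10931 CPM in Ezh2 replicates 1 and 2 and 8538 CPM in Ezh2 replicate 3. The 10 RGC markers went the other way, with 3 of the 8 tested higher at an adjusted p under 0.05 (2 with all 6 libraries), and summed levels of 127 to 132 CPM against 149 to 161 CPM and 166 CPM. Scaled on the RGC marker sum, the log2 fold change of *Scn1a* was -3.02, and scaled on the Muller glia marker sum it was -2.36, each with the shift of that scaling included. Most of the RGC sum was *Thy1*, the target of the sort (87.2 to 92.6 CPM in the GFP libraries). Most of the Muller glia sum was *Glul* (9540 to 9900 CPM in the GFP libraries). Beyond these rescaled values, the part of the cell mixture in the fall of *Scn1a* was not tested.

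**Figure D2:**
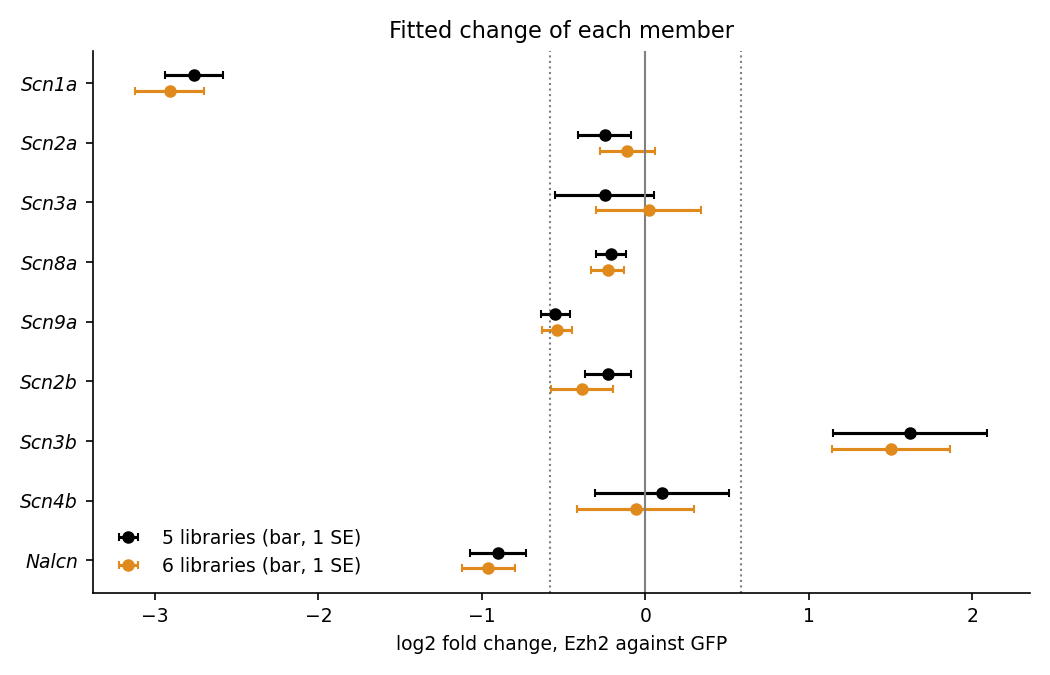
Fitted log2 fold change (horizontal axis, Ezh2 against GFP) of each member in the fit of 5 libraries (black) and of 6 libraries (orange), with bars of 1 SE. Dotted lines mark a fold change of 1.5 in either direction. *Scn1a* lies at -2.76 and -2.91, *Nalcn* and *Scn3b* lie outside the dotted lines on opposite sides, and *Scn9a* lies just inside at -0.55 and -0.54.

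Since *Scn1a*, *Scn2a*, *Scn3a* and *Scn9a* sit in 1 cluster on chromosome 2 together with *Scn7a*, the genes around them were compared. The window ran from 64957118 to 67284914, which is 500 kb beyond the outermost channel gene on each side, and held 12 tested genes. Of these, 2 were called, both lower, namely *Scn1a* and *Gm13629*. The latter is an antisense gene on the plus strand from 66440880 to 66546026, whose start lies 40 bases from that of *Scn1a* in the GENCODE annotation. *Gm13629* had 24, 27 and 17 counts in the GFP libraries and 7, 2 and 0 counts in the Ezh2 libraries, so that the groups did not overlap, at very low depth. Its log2 fold change was -2.39 ± 0.69 with an adjusted p of 0.0136 by edgeR. This call was lost with all 6 libraries (adjusted p = 0.0579) and without Ezh2 replicate 2 (adjusted p = 0.196). The count of 0 allows up to 3 counts, or 0.0834 CPM, in Ezh2 replicate 3, an allowance for counting error only. The exons of *Gm13629* share 180 bases with exons of *Scn9a* on the other strand and none with those of *Scn1a*. Whether the counting used the strand is not given in the sources used here.

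*Scn9a*, described below, and *Csrnp3* were the other 2 genes of the window with an adjusted p under 0.05. *Csrnp3*, next to *Scn2a*, had a log2 fold change of -0.51 ± 0.13 and an adjusted p of 0.00646, which misses the 1.5-fold limit, and -0.55 with all 6 libraries (adjusted p = 0.0697). *Cobll1* had the highest value of the window, 0.45 ± 0.21 (adjusted p = 0.146). *Ttc21b*, a cilium gene next to *Scn1a*, had a log2 fold change of -0.21 ± 0.08 (adjusted p = 0.0677). *Scn7a*, an atypical channel that responds to sodium level and has glial expression, had 7106, 6900 and 6900 counts in the GFP libraries and 6125, 7511 and 5697 in the Ezh2 libraries. These counts overlapped, but the groups did not overlap in CPM. The GFP libraries were at 232, 218 and 225 CPM and the Ezh2 libraries at 190, 214 and 158 CPM. The log2 fold change of *Scn7a* was -0.14 ± 0.06 and did not pass edgeR's test (adjusted p = 0.0831). Scaled on RGC markers or on Muller glia markers, 4 genes of the window were called in either case, and *Scn1a* and *Gm13629* were lower under both.

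**Figure D3:**
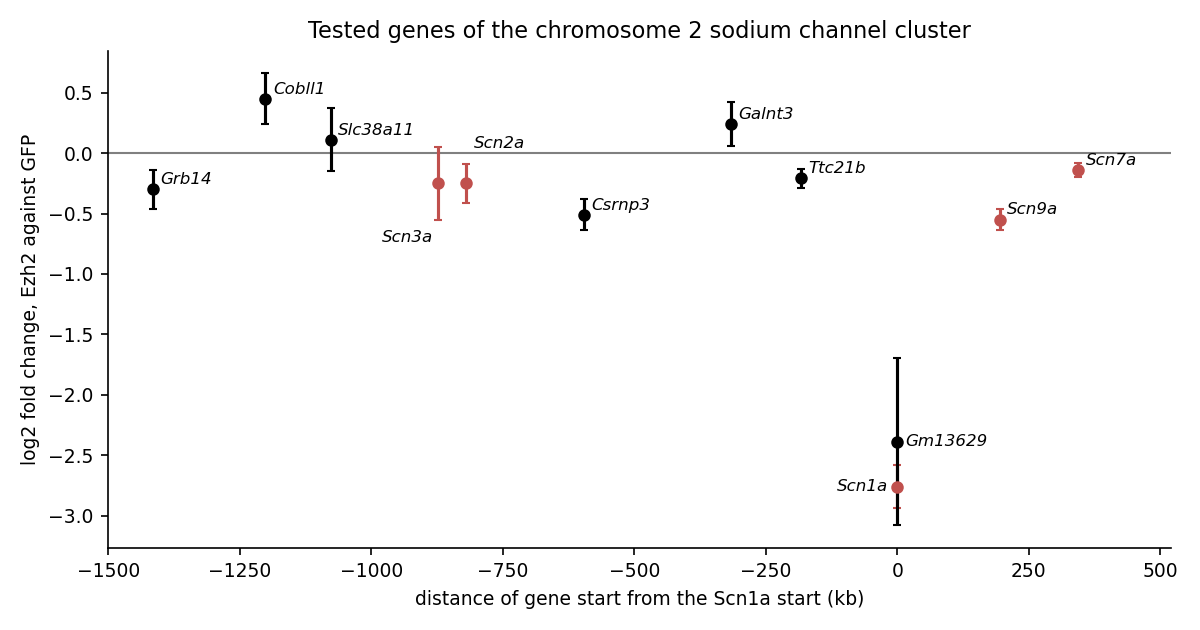
Log2 fold change (vertical axis, Ezh2 against GFP, fit of 5 libraries, bars of 1 SE) of the 12 tested genes around the chromosome 2 sodium channel cluster, by the distance of each gene's start from the *Scn1a* start in kb (horizontal axis). Sodium channel genes are red and other genes black. *Scn1a* and *Gm13629* share 1 position and lie at -2.76 and -2.39, while the other 10 genes lie between -0.55 and 0.45.

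*Scn9a* encodes the alpha subunit Nav1.7 and neighbours *Scn1a* (chromosome 2, 66480080 to 66634962, minus strand). Its level was 26.1, 25.4 and 26.1 CPM in the GFP libraries and 18.1, 16.9 and 16.8 CPM in the Ezh2 libraries. The groups did not overlap, and libraries within a group lay close together. The log2 fold change was -0.55 ± 0.09 (95% interval -0.74 to -0.37) with an adjusted p of 4.41e-05 by edgeR, a fall to 68.2% of the GFP level that stayed under the 1.5-fold limit. It was -0.54 ± 0.09 with all 6 libraries (adjusted p = 0.014). The threshold was missed when GFP replicate 1, 2 or 3 was left out of the 6 (adjusted p = 0.0982, 0.081 and 0.107). Log2 fold changes there were -0.53 to -0.56. In the main comparison without Ezh2 replicate 1, the log2 fold change was -0.59, just past the 1.5-fold limit. Scaled on Muller glia markers, the value was -0.15 and no longer passed the test (adjusted p = 0.174), in a scaling where the median of all genes moved to 0.39. Relative to that median, *Scn9a* was still lower. Of its 50-base stretches, 5.36% are shared with other channel genes.

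*Scn8a* encodes Nav1.6 (chromosome 15, 100869858 to 101045938, plus strand). It had the highest CPM of the members, with 31.5, 31.7 and 34.8 CPM in the GFP libraries and 30.2, 26.0 and 25.3 CPM in the Ezh2 libraries. The groups did not overlap, but the closest libraries differed by little. The log2 fold change was -0.21 ± 0.09, with a 95% interval of -0.38 to -0.03 and an adjusted p of 0.0911. It was -0.23 ± 0.10 with all 6 libraries (adjusted p = 0.187), and -0.30 without Ezh2 replicate 1, where it passed the test (adjusted p = 0.0459). Almost none of its sequence, 0.0527% of 50-base stretches, is shared with the other channel genes.

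*Scn2a* encodes Nav1.2, an alpha subunit of unmyelinated axons (chromosome 2, 65620771 to 65767447, plus strand). It was at 7.13, 8.25 and 7.52 CPM in the GFP libraries and 6.93, 5.85 and 7.78 CPM in the Ezh2 libraries. The groups overlapped through Ezh2 replicate 3, and the log2 fold change of -0.25 ± 0.16 in 5 libraries (95% interval -0.57 to 0.08) did not pass the test (adjusted p = 0.322), nor did that of -0.11 ± 0.17 in 6 (adjusted p = 0.708).

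*Scn3a* encodes Nav1.3, which is mostly embryonic (chromosome 2, 65457118 to 65567627, minus strand). It was at 3.14, 1.74 and 1.98 CPM in the GFP libraries and 1.77, 2.03 and 2.95 CPM in the Ezh2 libraries. The groups overlapped, with the highest value in GFP replicate 1. Its log2 fold change of -0.25 ± 0.30 (95% interval -0.87 to 0.36, adjusted p = 0.63) became 0.02 with all 6 libraries and 0.04 without GFP replicate 1, so no direction can be given. *Scn3a* shares the most sequence of the members, 8.53% of its 50-base stretches.

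To ask whether the make-up of the alpha subunits differed between the groups, each alpha member was expressed as a share of the summed counts per kb of the 5. *Scn1a* made up 19.0%, 18.2% and 17.6% of this pool in the GFP libraries and 3.22%, 4.88% and 2.7% in the Ezh2 libraries. The groups were well separated, at 18.3% ± 0.718 (SD, n = 3) against 4.05% ± 1.17 (SD, n = 2). The exact permutation test (two-sided) gave p = 0.2 for 5 libraries and p = 0.1 for 6, which are the smallest values these designs allow. The share of *Scn8a* was 34.7% ± 1.54 in the GFP libraries and 44.9% ± 1.75 in Ezh2 replicates 1 and 2, at the same p in the exact permutation test, while its level in CPM was not higher in any Ezh2 library than in a GFP library. The share of *Scn9a* was 33.9% ± 0.208 in the GFP libraries and 34.6% ± 0.629 in Ezh2 replicates 1 and 2. The exact permutation test of 5 libraries gave p = 0.2 here too, so this p does not tell a small shift from a large one. *Scn2a* made up 9.34%, 11.1% and 9.73% of the pool in the GFP libraries and 13.1%, 12.2% and 15.8% in the Ezh2 libraries.

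The pool itself was 6.00, 5.85 and 6.07 CPM per kb in the GFP libraries and 4.15, 3.78 and 3.88 CPM per kb in the Ezh2 libraries. Its mean was 2.01 CPM per kb lower in Ezh2 replicates 1 and 2 than in the GFP libraries. Of this difference, *Scn1a* accounted for 46.5%, *Scn9a* for 32.6% and *Scn8a* for 14.5%, with the rest from *Scn2a* and *Scn3a*. Within each library, the log2 ratio of *Scn1a* counts to those of another alpha subunit is free of the library scaling. The ratio to *Scn9a* was -1.04, -1.09 and -1.13 in the GFP libraries and -3.60, -3.04 and -3.85 in the Ezh2 libraries, a mean difference of -2.23 for 5 libraries. The differences for the ratios to *Scn2a*, *Scn3a* and *Scn8a* were -2.54, -2.57 and -2.58. All 4 ratios separated the groups completely, with p = 0.2 in the exact permutation test of 5 libraries (two-sided, Benjamini-Hochberg value over the 4 ratios 0.2) and p = 0.1 for 6 libraries. The ratio of *Scn1a* to each other alpha member was thus lower in every Ezh2 library than in any GFP library, and designs of this size cannot give a smaller p.

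**Figure D4:**
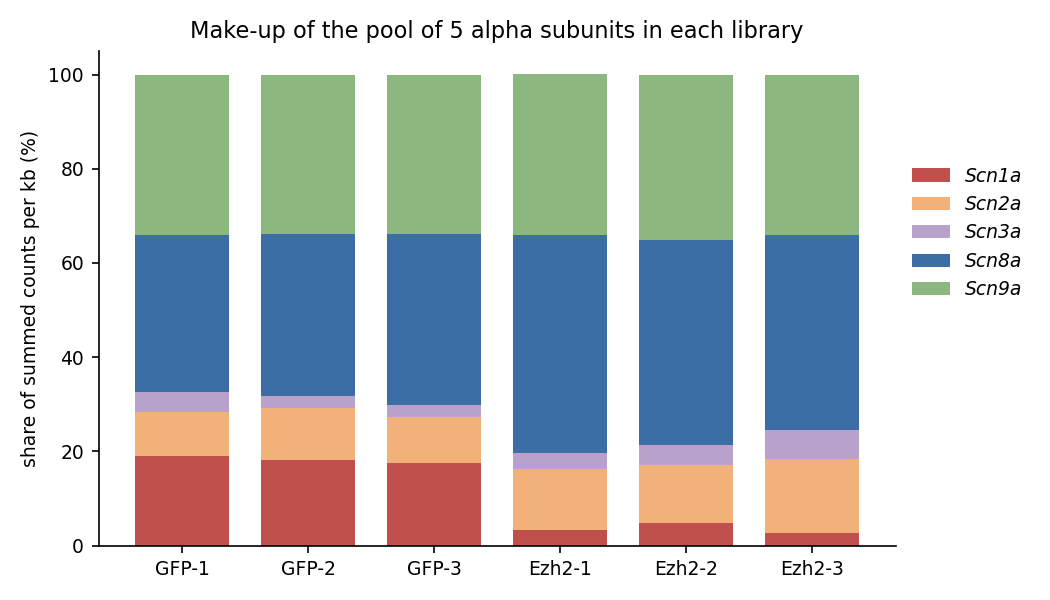
Share of the summed counts per kb of merged exons (vertical axis, percent, starting at 0) taken by each of the 5 alpha subunits in each library. Stacked colours are the genes. The lowest segment, *Scn1a*, takes 17.6% to 19.0% in the GFP libraries and 2.7% to 4.88% in the Ezh2 libraries, while the top segment, *Scn9a*, has nearly the same height in all 6.

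Of the 3 beta subunits, 1 was called. *Scn2b*, a beta subunit that binds the pore by a disulfide bond (chromosome 9, 45117782 to 45130070, plus strand), had 9.58, 9.16 and 8.78 CPM in the GFP libraries and 8.14, 7.45 and 4.89 CPM in the Ezh2 libraries. The groups did not overlap, with Ezh2 replicate 3 lowest. The log2 fold change of -0.23 ± 0.14 (95% interval -0.52 to 0.07) did not pass the test (adjusted p = 0.31), nor did the value of -0.39 ± 0.19 for all 6 libraries (adjusted p = 0.228). *Scn4b*, which also binds by a disulfide bond and lies next to *Scn2b* (45138395 to 45154152), was at 1.11, 1.11 and 0.651 CPM in the GFP libraries and 1.15, 0.885 and 0.667 CPM in the Ezh2 libraries. The groups overlapped fully, and the log2 fold change of 0.10 ± 0.41 had a 95% interval of -0.74 to 0.93, too wide to exclude a change of 1.5-fold in either direction. The value was -0.06 ± 0.36 in 6 libraries (adjusted p = 0.936).

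*Scn3b*, a beta subunit that is not bound by a disulfide bond (chromosome 9, 40269217 to 40291618, plus strand), was the member called higher. Its level was 0.425, 0.316 and 0.390 CPM in the GFP libraries and 1.09, 1.23 and 0.834 CPM in the Ezh2 libraries. In counts these were 13, 10 and 12 against 35, 43 and 30, so each Ezh2 library was above each GFP library but the values rest on few reads. The log2 fold change was 1.62 ± 0.47 (95% interval 0.66 to 2.58) with an adjusted p of 0.0144 by edgeR, and 1.5 ± 0.36 with all 6 libraries (adjusted p = 0.0444). The call was lost when Ezh2 replicate 1 was left out (adjusted p = 0.0629) or Ezh2 replicate 2 (adjusted p = 0.161). With all 6 libraries it was lost on leaving out any of the 5 libraries in turn, with adjusted p of 0.0949 to 0.179. RGC markers also had higher levels in these libraries, among them the neurofilament genes *Nefl* (log2 fold change 0.56, adjusted p = 0.00106) and *Nefh* (0.72, adjusted p = 0.0229). Their part in the rise of *Scn3b* was not tested.

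*Nalcn* encodes the pore of the sodium leak channel (chromosome 14, 123276634 to 123627144, minus strand). It was at 7.95, 7.99 and 7.71 CPM in the GFP libraries and 4.53, 3.85 and 3.45 CPM in the Ezh2 libraries. The GFP libraries were nearly alike, and all 3 Ezh2 libraries lay below them. The fitted level fell to 53.5% of the GFP level, a log2 fold change of -0.90 ± 0.17 (95% interval -1.25 to -0.55) with an adjusted p of 0.000244 by edgeR. With all 6 libraries the log2 fold change was -0.96 ± 0.16 and the adjusted p 0.0127. That call was lost when GFP replicate 1, 2 or 3 was left out of the 6 (adjusted p = 0.085, 0.0771 and 0.0853), with log2 fold changes of -0.95 to -0.98. Leaving out any 1 of the 5 libraries of the main comparison gave log2 fold changes of -0.80 to -1.01, and each passed the test. No stretch of *Nalcn* is shared with the sodium channel genes. Muller glia and amacrine marker sums were lower in the same libraries, as given above, and with Muller glia scaling the log2 fold change was -0.50 (adjusted p = 0.0163), which is under the 1.5-fold limit, so the call was lost there. The median of all genes was 0.39 under that scaling.

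The accessory genes of the leak channel were read beside it. *Unc80* was lower with a log2 fold change of -0.31 ± 0.09 (adjusted p = 0.0149), from 31.2 to 36.6 CPM in the GFP libraries to 20.3 to 30.1 CPM in the Ezh2 libraries. It no longer passed with all 6 libraries (-0.42, adjusted p = 0.0995), without GFP replicate 1 (adjusted p = 0.0717) or without Ezh2 replicate 2 (adjusted p = 0.323). *Unc79* had a log2 fold change of -0.26 ± 0.14 (adjusted p = 0.212) and *Fam155a* of 0.02 ± 0.25 (adjusted p = 0.966). In Ezh2 replicate 3 *Fam155a* stood at 0.667 CPM, below the other 5 libraries, which lay between 2.21 and 3.10 CPM.

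Partner genes of the channels were listed in 7 groups with 50 names, of which 49 were in the table and 45 were tested. Of these, 1 was called lower and 1 higher, beside the 3.80% called among all genes, and 11 were lower and 1 higher at an adjusted p under 0.05 alone, beside 7.68% lower and 10.1% higher among all genes. With all 6 libraries edgeR called 0 partner genes, with 4 under an adjusted p of 0.05 alone (5.78% of all genes) and 23 under an unadjusted p of 0.05. The median log2 fold change of the tested partner genes was -0.13.

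Among the 4 other voltage-gated subunit genes tested, *Scn4a* and *Scn7a* among them, 0 passed the test by edgeR, with 1 under an unadjusted p of 0.05 and 0 passing by DESeq2 or limma-voom. *Scn10a*, a channel of peripheral sensory neurons, was at 0 in all 6 libraries, and *Scn11a*, also of sensory neurons, was at no more than 0.327 CPM.

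The fibroblast growth factor homologous factors bind the tail of the alpha subunit inside the cell and shift its inactivation. Of the 4 genes, 2 were lower at an adjusted p under 0.05, both short of the 1.5-fold limit. *Fgf13* was at 23.3, 26.3 and 24.7 CPM in the GFP libraries and 19.6, 20 and 19.6 CPM in the Ezh2 libraries, with a log2 fold change of -0.31 ± 0.09 (adjusted p = 0.0169). *Fgf11* had a log2 fold change of -0.31 ± 0.10 (adjusted p = 0.0322). Neither passed with all 6 libraries (*Fgf13* -0.29, adjusted p = 0.119; *Fgf11* -0.40, adjusted p = 0.103). *Fgf13* was also lost without GFP replicate 2 (adjusted p = 0.0929), Ezh2 replicate 1 (adjusted p = 0.109) or Ezh2 replicate 2 (adjusted p = 0.0525). *Fgf11* was lost without GFP replicate 1 or 3 or either Ezh2 replicate (adjusted p = 0.0817 to 0.179) and by limma-voom (adjusted p = 0.0552). *Fgf14* was under 0.9 CPM in every library and did not pass the test.

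Genes of the axon initial segment and node scaffold, which hold the channels in place, were abundant. Of the 11 tested, 4 were lower at an adjusted p under 0.05, all short of the 1.5-fold limit. *Ank3*, ankyrin G, which anchors sodium channels, was at 627 to 669 CPM in the GFP libraries and 494 to 567 CPM in the Ezh2 libraries, a log2 fold change of -0.23 ± 0.05 (adjusted p = 0.0011). *Cntnap2*, of the segments beside nodes, had a log2 fold change of -0.35 ± 0.07 (adjusted p = 0.00034). The adhesion molecule genes *Nrcam* and *Nfasc* had log2 fold changes of -0.26 ± 0.05 (adjusted p = 0.000416) and -0.21 ± 0.06 (adjusted p = 0.0171). In the fit of 6 libraries 1 of the 11 genes passed, *Nrcam* (-0.33, adjusted p = 0.047), while *Ank3* (-0.25, adjusted p = 0.0516), *Cntnap2* (-0.46, adjusted p = 0.0514) and *Nfasc* (-0.28, adjusted p = 0.114) did not. *Nfasc* was also lost without GFP replicate 3 (adjusted p = 0.155) or Ezh2 replicate 2 (adjusted p = 0.148). The spectrin gene *Sptbn4*, which links ankyrin G to actin, had a value of -0.53 ± 0.21 that did not pass the test (adjusted p = 0.0824). Glia also use several genes of this list, and Muller glia markers fell in the same libraries. Their part in these falls was not tested.

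Among 10 regulators of the channels, 1 was called higher and 1 more was lower at an adjusted p under 0.05. *Bace2*, a membrane protease related to the one that cuts beta subunits, was at 1.01, 1.42 and 1.76 CPM in the GFP libraries and 2.92, 3.43 and 1.58 CPM in the Ezh2 libraries. Its log2 fold change was 1.19 ± 0.29 (adjusted p = 0.00305) in 5 libraries and 0.95 (adjusted p = 0.128) in 6, where Ezh2 replicate 3 lay within the GFP range, and it missed the threshold without Ezh2 replicate 2 (adjusted p = 0.0662). *Bace1*, the protease known to cut *Scn2b* protein, had a log2 fold change of -0.19 ± 0.07 (adjusted p = 0.0625). *Nedd4l*, a ubiquitin ligase that removes sodium channels from the membrane, had a log2 fold change of -0.27 ± 0.05 (adjusted p = 0.000304) in 5 libraries and -0.27 (adjusted p = 0.0371) in 6. With all 6 libraries it missed the threshold on leaving out any of the other 5 in turn, with adjusted p of 0.0643 to 0.201. *Rest*, the repressor of neuronal genes that binds sodium channel genes in non-neuronal cells, was at 148, 148 and 156 CPM in the GFP libraries and 150, 152 and 144 CPM in the Ezh2 libraries, with a log2 fold change of 0.02 ± 0.05.

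The sodium pump restores the gradient that the channels use. Of the 8 pump genes 3 were lower at an adjusted p under 0.05, of which 1 was called. *Atp1b1*, a beta subunit of the pump, was at 21.6, 18.9 and 17.3 CPM in the GFP libraries and 12.5, 10.1 and 14.3 CPM in the Ezh2 libraries, with a log2 fold change of -0.76 ± 0.12 (adjusted p = 1.64e-05). With all 6 libraries it was -0.60 (adjusted p = 0.0616). Its exons overlap those of *Nme7* on the other strand over 18.7% of their length, so reads of the 2 genes may be mixed. *Fxyd6*, a modulator of the pump, had a log2 fold change of -0.46 ± 0.06 (adjusted p = 3.62e-07) in 5 libraries and -0.55 (adjusted p = 0.0132) in 6. Of the 5 acid-sensing and epithelial sodium channel genes tested, 0 passed the test by edgeR, with 0 under an unadjusted p of 0.05 and 0 passing by DESeq2 or limma-voom.

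**Figure D5:**
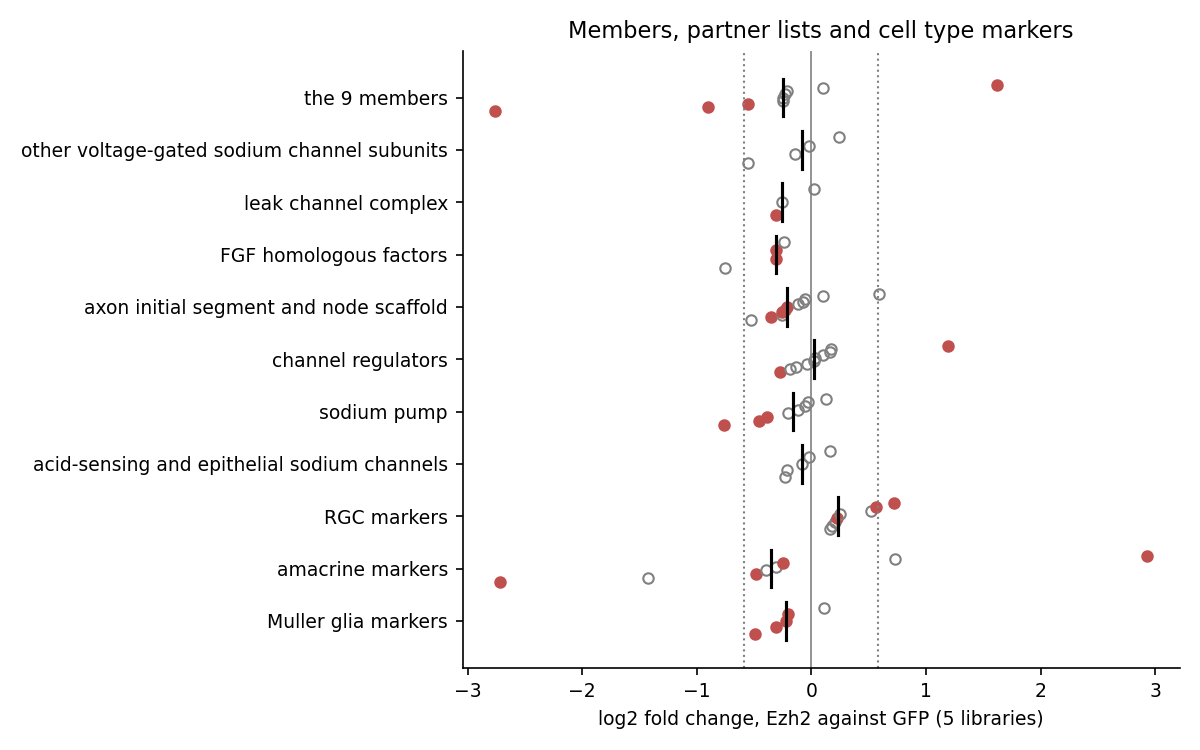
Log2 fold change (horizontal axis, Ezh2 against GFP, fit of 5 libraries) of each tested gene of the members, of the 7 partner lists and of 3 marker lists. Filled red points have an adjusted p under 0.05, open grey points do not, black lines are list medians and dotted lines mark a fold change of 1.5. *Scn1a* at -2.76 lies far from the partner genes, of which *Atp1b1* is the one past the left dotted line with a filled point.

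Other cell types in the mixture also differed between the groups. Of the 5 cone markers 5 were called higher in the fit of 5 libraries (2.52% of all genes were), and by edgeR 0 with all 6 libraries, where 4 had an unadjusted p under 0.05, with summed levels of 11.9 to 15.3 CPM in the GFP libraries and 27.1 to 38.9 CPM in Ezh2 replicates 1 and 2, and 15.8 CPM in Ezh2 replicate 3. Of the 3 horizontal cell markers 1 was tested, *Calb1*, which was lower by 2.73 on the log2 scale. *Lhx1* and *Onecut1* of the same list were at or near 0. Of 6 T cell markers, 5 were higher at an adjusted p under 0.05, and of 8 microglia and macrophage markers, 6 were, beside 10.1% of all genes. These numbers were 2 and 1 in the fit of 6 libraries. Of the 8 RGC subtype markers, 6 were tested. At an adjusted p under 0.05, 3 were lower and 2 higher, beside 7.68% and 10.1% of all genes. With all 6 libraries 1 was lower and 1 higher, beside 5.78% of all genes in either direction. The part of these shifts in the values of the members was not tested.

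The genes whose pattern over the 6 libraries was most like that of *Scn1a* were found by the root mean square difference in log2 CPM, each gene being centred on its GFP mean, among 13769 genes with at least 100 counts on average. The nearest was *Tfap2b*, a transcription factor gene of amacrine cells, at a difference of 0.18. It was at 12.1, 10 and 10.2 CPM in the GFP libraries and 1.02, 2.20 and 1.03 CPM in the Ezh2 libraries, so that Ezh2 replicate 2 was the highest of the 3 Ezh2 libraries for both genes. *Tfap2c*, of the same amacrine marker list, went the other way, with a log2 fold change of 2.93 (adjusted p = 9.27e-07 by edgeR). Its level was 0.229, 0.348 and 0.618 CPM in the GFP libraries and 3.66, 2.43 and 1.83 CPM in the Ezh2 libraries. *Gjd2*, which encodes a connexin of neuronal gap junctions, followed at 0.26, with 28.2, 23.0 and 20.9 CPM against 3.48, 5.22 and 3.17 CPM. *Epha8*, an ephrin receptor gene, lay at 0.42, *Kcnj5*, a potassium channel gene, at 0.43, and *Crhbp*, which encodes a binding protein of corticotropin-releasing hormone, at 0.51. For *Nalcn* near genes were *Fat3*, an atypical cadherin gene, at 0.07, *Ackr1* and *Gm45003* at 0.09, and *Spock1* at 0.10. *Fat3* was at 83.8, 89.2 and 96.1 CPM in the GFP libraries and 51.6, 45.2 and 40.7 CPM in the Ezh2 libraries, where Ezh2 replicate 3 was lowest, as it was for *Nalcn*. The likeness has no test, because the genes were picked for it.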

How the data were processed

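Total RNA of sorted retinal cells was made into TruSeq stranded libraries. The table deposited by the authors holds raw read counts per Ensembl gene for 3 GFP and 3 Ezh2 libraries. The submitters' processing notes name GRCm38 and STAR 2.7.0d. The counting program, annotation release and strand setting are not given in the sources used here. GENCODE M21 supplied symbols and coordinates for 55480 of 55573 genes, and 0 sample columns were left unmapped.

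Counts were filtered with filterByExpr, scaled by TMM and tested by edgeR 4.0.16 (R 4.3.3, quasi-likelihood with robust prior, two-sided, Benjamini-Hochberg over all genes tested) on all libraries but Ezh2 replicate 3. The name of the library that the study excluded is inferred from its heatmap. SEs came from the F statistic. CPM used library totals. A fit was tested on simulated counts. Shares and ratios used exact permutation tests (scipy 1.17.1). DESeq2 1.42.0, limma-voom (limma 3.58.1), other scalings, filters, blocks and left-out libraries were alternatives. Plots used matplotlib 3.10.9. Promoter sequences are from RefSeq (GRCm38.p6).

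Named genes are the members, all listed partners and markers, *Ezh2*, called genes of the chromosome 2 window (other genes of that window were named after their values were seen), and the 5 genes most like *Scn1a* and *Nalcn*. Some results under this rule are not reported here. Members and lists were chosen with earlier results of these data known.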

Additional observations from a re-analysis of the deposited data

Results flagged for a closer look

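In Ezh2 replicate 3, left out of the main comparison, 4 member or partner genes stood above every GFP library. For each, the lower end of an exact 95% Poisson interval of the Ezh2 replicate 3 count lay above the highest GFP value. *Scn3b* was at 0.834 CPM (interval 0.563 to 1.19), against at most 0.425 CPM in the GFP libraries, and Ezh2 replicates 1 and 2 were also above them at 1.09 and 1.23 CPM. *Cntn2*, an adhesion molecule of axons, was at 4.42 CPM (3.76 to 5.16), against 2.02 to 3.66 CPM in the GFP libraries and 3.45 to 4.78 CPM in Ezh2 replicates 1 and 2. *Trim46*, which organises microtubules of the proximal axon, was at 23.1 CPM (21.6 to 24.8), above the 13.2 to 14.8 CPM of the other 5 libraries. *Rcor1*, a partner of the repressor *Rest*, was at 70.4 CPM (67.7 to 73.2), above the 47.3 to 54.3 CPM of the other 5 libraries. The intervals cover the counting error of the Ezh2 replicate 3 count only. They leave out that of the GFP counts, which for *Cntn2* were 112, 64 and 78, so its excess may lie within counting error. In edgeR's test of all 6 libraries *Scn3b* passed (adjusted p = 0.0444), while *Cntn2* (adjusted p = 0.162), *Trim46* (adjusted p = 0.267) and *Rcor1* (adjusted p = 0.142) did not.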

How the results depend on the processing

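*Scn1a* passed the test with the same direction under all 22 alternatives, with log2 fold changes of -3.15 to -2.36 and adjusted p up to 0.00819. *Nalcn* kept its direction under all 22 (-1.17 to -0.50). Its adjusted p missed the threshold under 3, which were the 6 libraries less 1 GFP library, and its fold change fell under 1.5 with Muller glia scaling (-0.50), so its call was lost under 4. Scaling on the RGC marker sum and on the Muller glia marker sum (chosen after seeing the data, as was the fit without a robust prior) moved the median of all genes to -0.27 and 0.39, so values under them are read against those medians. Under Muller glia scaling, values turned positive for *Scn2a* (0.15), *Scn3a* (0.14), *Scn8a* (0.19), *Scn2b* (0.17), *Unc80* (0.09), *Fgf11* (0.09), *Fgf13* (0.09), *Ank3* (0.17), *Nfasc* (0.19), *Nrcam* (0.14), *Cntnap2* (0.05) and *Nedd4l* (0.13), all below the shifted median. *Scn3a* was also above 0 with all 6 libraries (0.02), with their replicate block (0.03), without GFP replicate 1 (0.04, or 0.32 of the 6) and, of the 6, without Ezh2 replicate 1 (0.19) or 2 (0.10), and over all libraries left out it ran from -0.42 to 0.32. *Scn4b* turned negative with all 6 libraries (-0.06), RGC scaling (-0.17) and the replicate block in 5 (-0.12) and 6 libraries (-0.04), without GFP replicate 3 (-0.12, or -0.27 of the 6), without Ezh2 replicate 1 (-0.09, or -0.25 of the 6) and without Ezh2 replicate 2 of the 6 (-0.04), and reached 0.26 at most over the libraries left out.

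Members called ran from 1 to 3 over the libraries left out, members called lower from 1 to 3 and members called higher from 0 to 1. Muller glia scaling left 1 member called lower. RGC scaling called 3 lower and 1 higher, with *Scn9a* added at -0.82 (adjusted p = 1.49e-08 by edgeR). *Scn8a* (-0.47), *Scn2b* (-0.49) and *Scn2a* (-0.51) also had an adjusted p under 0.05 there, beside a median of -0.27 over all genes. The member called higher, *Scn3b*, was not called by DESeq2, which gave it no adjusted p, nor under a filter of at least 50 counts on average, which removed it, nor with 6 libraries and the replicate block (0 in each case). Partner genes called numbered 0 with 6 libraries, with or without the block, 6 with RGC scaling and 12 by adjusted p alone, and 0 to 3 over the libraries left out. Genes called in the chromosome 2 window numbered 1 with 6 libraries, with or without the block, 1 by DESeq2, 1 under the filter of 50 counts and 4 under either marker scaling, and 1 to 3 over the libraries left out. *Ezh2* ran from 1.05 to 1.56 over the libraries left out and missed the threshold with 6 libraries less any GFP library (1.34, 1.47 and 1.43, adjusted p = 0.0616 to 0.0877). The difference in the *Scn1a* share of -14.2 percentage points was -11.9 on raw counts and -22.4 in the pool of *Scn1a*, *Scn2a* and *Scn8a*, and -15.1 to -13.4 over the libraries left out. The log2 ratio of *Scn1a* to *Scn3a* differed by -2.98 with 6 libraries. The cause of these changes was not tested, except where a filter removed the gene.

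Libraries with the same replicate number did not deviate together (correlations of -0.00506, -0.0197 and -0.0102), so the numbers were not taken to pair samples. With the replicate block, *Nfasc* (-0.14, adjusted p = 0.213) and *Fgf11* (-0.26, adjusted p = 0.151) lost the threshold in 5 libraries, members called stayed at 3 in 5 libraries and fell to 2 in 6, and genes called overall numbered 722 and 396, against 770 and 499 without it. *Scn3b* and *Gm13629* rest on few counts, and their values are the least certain of those called.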

Other observations

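In Ezh2 replicate 3 some partner genes also lay below all 5 other libraries. The subunit gene *Scn4a* was at 0.528 CPM there, against 1.30 to 1.86 CPM elsewhere, and the acid-sensing channel gene *Asic1* was at 8.90 CPM, against 14 to 18 CPM. *Asic4* was at 4.36 CPM, against 7.99 to 10.7 CPM. *Gad1*, an amacrine marker that makes GABA, stood out in the other direction at 12.1 CPM, where the other 5 libraries held 1.77 to 3.66 CPM. These genes were picked after their values were seen.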
